A study of Mus musculus with 6 samples.

Results

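Hepatocytes store surplus fatty acids as triglyceride in lipid droplets, and 10 genes that build, coat, fuse or break down these droplets were examined in livers of mice given a single large dose of ethanol. They were the rows of the deposited liver expression table whose gene name was Plin2, Plin4, Plin5, Cidec, Cidea, Pnpla2, G0s2, Dgat1, Dgat2 or Mogat1. All 10 were found, each in a single row, among 28880 genes, and 9 of them were abundant enough to be tested among 16717 genes; Cidea was not. Liver RNA came from wild type male C57BL/6J mice aged 6 to 8 weeks, 3 acute ethanol-exposed mice and 3 control mice, with 1 library from each. The ethanol-exposed mice were fasted for 12 h, received 50% ethanol by mouth at 6 g/kg, and were sampled 24 h after the dose. The control mice received no ethanol, and the sources used here do not state that they were fasted, so the effects of ethanol and of fasting cannot be told apart. All 6 libraries carry the label of a single batch.

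As background, triglyceride is made from activated fatty acids by acylation of glycerol phosphate, and its last step, the acylation of diacylglycerol, is carried out by Dgat1 and Dgat2, while Mogat1 feeds the same step from monoacylglycerol. The droplet is coated by perilipins, of which Plin2 is the constitutive coat protein of liver droplets, Plin5 links droplets to mitochondria in oxidative tissues, and Plin4 coats nascent droplets of adipocytes. Cidec and Cidea promote fusion of small droplets into large ones and are abundant in adipocytes. Pnpla2 encodes adipose triglyceride lipase, the enzyme that begins hydrolysis of stored triglyceride, and G0s2 encodes its inhibitor. Fatty liver, the accumulation of such droplets, is an early feature of exposure to alcohol and also follows a fast.

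The counts came from libraries of 60514417 to 74210869 counts on genes and were scaled by TMM factors of 0.768 to 0.836 in ethanol-exposed mice and of 1.26 to 1.27 in control mice. CPM values are relative to the library size so scaled, and FPKM values are the authors' own, per kilobase of transcript and scaled by library size only. The genes tested had a median log2 fold change of -0.04 with these factors and of -0.71 with library size alone, so a small fold change depends on the scaling. Ethanol replicate 3 stood apart, with a correlation of log2 CPM over genes of 0.943 and 0.949 with the other ethanol-exposed mice, which had 0.968 with each other. The 14 hepatocyte markers were detected in every library, with a summed level of 57509 to 68928 FPKM.

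Upregulated and downregulated genes were called with edgeR's quasi-likelihood test, where the Benjamini-Hochberg adjusted p had to be below 0.05 and the log2 fold change above 1 or below -1. Plin4, Plin5, Cidec, Pnpla2 and Dgat1 were called upregulated in ethanol-exposed mice, 5 of the 9 members tested, where 10.4% of all genes tested were called upregulated. None was called downregulated (13.8% of all genes tested), and under the same test 0 members had a log2 fold change below 0. With library size alone, 846 of all genes were called upregulated and 5385 downregulated, instead of 1738 and 2301, and 4 members were called, all upregulated. At the adjusted p alone, 6 members passed, all higher, where 43.0% of all genes passed in either direction. The groups did not overlap in CPM for 7 of the 9 members, each time with ethanol-exposed mice higher, where 59.0% of all genes did not overlap and 28.0% were higher without overlap. In FPKM, scaled by library size only, Plin2 was lower without overlap (80.4 to 86.8 against 108.9 to 114.1) and Dgat2 overlapped. The median log2 fold change was 1.21 over the members tested and -0.04 over all genes tested. As the libraries are of whole liver, more cells of a type and more RNA per cell cannot be told apart.

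**Figure D1:**
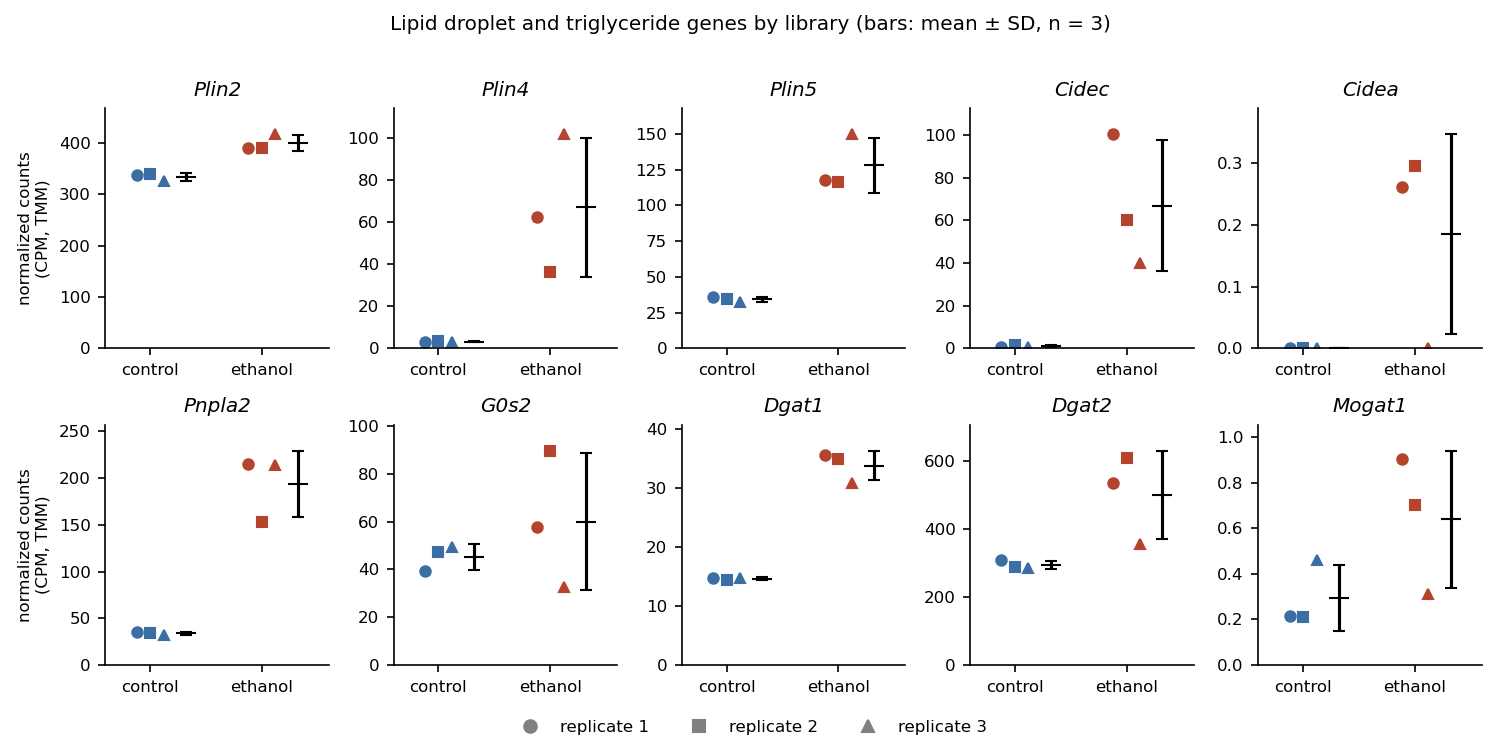
Normalized counts of each gene in the 3 control mice (blue) and the 3 ethanol-exposed mice (red), in CPM after TMM scaling on axes that start at 0, with a symbol for each replicate and a bar for the mean ± SD. Cidec, Plin4, Plin5, Pnpla2 and Dgat1 are separated between the groups, whereas G0s2 and Mogat1 overlap.

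Upstream sequences of the members called upregulated are shown because these genes were all higher in ethanol-exposed mice. RefSeq's table of promoters for build GRCm38.p6 had entries for 7 of the 10 members, with 9 start sites, and 4 of the 5 called members were among them. The 250 bases before the start site are given 5′ to 3′ on the strand of the gene, for Cidec (chr6:113435761-113436010, minus strand), Plin4 (chr17:56109783-56110032, minus strand), Plin5 (chr17:56117549-56117798, minus strand) and Pnpla2 (chr7:141454938-141455187, plus strand). The bases just after the start site were found near the opening of an annotated transcript for Cidec, Plin4 and Plin5. They were not for Pnpla2, so its start site is less certain. Capitals mark matches on either strand to the motifs listed after the sequences.
Cidec: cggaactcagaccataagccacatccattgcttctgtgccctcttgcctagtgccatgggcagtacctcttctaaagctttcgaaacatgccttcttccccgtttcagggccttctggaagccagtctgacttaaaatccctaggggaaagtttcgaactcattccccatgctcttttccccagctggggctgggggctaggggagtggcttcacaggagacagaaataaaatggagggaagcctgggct
Plin4: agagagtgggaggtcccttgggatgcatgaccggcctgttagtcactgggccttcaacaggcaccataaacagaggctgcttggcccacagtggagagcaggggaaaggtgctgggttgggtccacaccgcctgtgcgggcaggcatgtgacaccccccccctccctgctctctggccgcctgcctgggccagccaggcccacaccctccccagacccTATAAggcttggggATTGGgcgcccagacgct
Plin5: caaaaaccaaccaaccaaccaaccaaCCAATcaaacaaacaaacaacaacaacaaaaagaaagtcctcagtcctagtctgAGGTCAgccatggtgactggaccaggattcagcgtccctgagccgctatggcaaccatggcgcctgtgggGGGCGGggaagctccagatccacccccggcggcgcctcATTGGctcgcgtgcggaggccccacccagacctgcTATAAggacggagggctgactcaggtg
Pnpla2: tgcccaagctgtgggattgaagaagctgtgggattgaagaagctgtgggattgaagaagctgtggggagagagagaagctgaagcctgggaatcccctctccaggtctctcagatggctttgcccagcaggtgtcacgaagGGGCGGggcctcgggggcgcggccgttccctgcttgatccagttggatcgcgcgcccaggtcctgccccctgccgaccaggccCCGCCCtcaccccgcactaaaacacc

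A set of 7 motifs was searched on both strands of each window, and the share of all 32851 RefSeq windows of the same length that held each is given beside it. These motifs were AGGTCA (the core of nuclear receptor elements, 14.0% of windows), its direct repeat with a spacer of 1 base (0.0335%), TGTTCT (the core of glucocorticoid receptor elements, 16.1%), CACGTG (the E-box, 6.02%), CCAAT (33.8%), GGGCGG (the GC box, 32.7%) and TATAA (22.8%). Plin5 held AGGTCA at 165 bases from the start site, as well as CCAAT on both strands, GGGCGG and TATAA. Plin4 held CCAAT and TATAA. The TATAA match ended 28 bases from the start site in Plin4 and 23 bases in Plin5. Pnpla2 held GGGCGG on both strands. No motif was matched in the Cidec window shown, nor in the window of its other start site. Outside the 4 sequences shown, Plin2 held AGGTCA and CCAAT, G0s2 held GGGCGG, and the window of the other Plin5 start site held GGGCGG at 234 and 48 bases. The repeat, TGTTCT and CACGTG were matched in 0 of the 9 windows. A match is a description of letters in the window.

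Among the perilipins, Plin4 and Plin5 rose and Plin2 did not pass the test. Plin4 (ENSMUSG00000002831, chromosome 17, 56407591 to 56416803, minus strand) had 62.7, 36.5 and 102 CPM in the ethanol-exposed mice and 3.12, 3.39 and 3.12 CPM in the control mice. Every ethanol-exposed mouse was far above the narrow control range, and ethanol replicate 3 was the highest. The mean was 67.0 ± 32.9 CPM (SD, n = 3) against 3.21 ± 0.153 CPM, 20.9-fold higher, with a log2 fold change of 4.38 (SE 0.38, adjusted p = 0.000281 in edgeR's quasi-likelihood test). On the FPKM scale, 69.3% of all genes tested had a higher mean level than Plin4 in control mice and 16.8% in ethanol-exposed mice.

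Plin5 (ENSMUSG00000011305, chromosome 17, 56418601 to 56424596, minus strand) lies 1797 bases upstream of Plin4 on the same strand. It had 117, 117 and 149.7 CPM in the ethanol-exposed mice and 35.7, 34.6 and 32.6 CPM in the control mice. The groups were well apart, and replicates 1 and 2 of the ethanol-exposed mice were nearly equal. The mean was 128 ± 18.9 CPM against 34.3 ± 1.57 CPM (SD, n = 3), 3.72-fold higher, with a log2 fold change of 1.90 (SE 0.13, adjusted p = 0.000144 in edgeR's quasi-likelihood test). Plin4 shares 17 bases with Hdgfl2 on the opposite strand, whereas no gene of the table overlaps Plin5.

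Plin2 (ENSMUSG00000028494, chromosome 4, 86566623 to 86588297, minus strand), the standard coat protein of hepatocyte droplets, had 389, 391 and 417 CPM in the ethanol-exposed mice and 337, 340.2 and 325 CPM in the control mice. The groups did not overlap, but the distance between them was small. The mean was 399 ± 15.5 CPM against 334 ± 7.92 CPM (SD, n = 3), 1.19-fold higher, with a log2 fold change of 0.26 (SE 0.10) that missed the threshold (adjusted p = 0.0671 in edgeR's quasi-likelihood test). The direction depends on the scaling, as its level was 84.1 ± 3.36 FPKM in ethanol-exposed mice against 112 ± 2.86 FPKM in control mice, and with library size alone edgeR gave a log2 fold change of -0.41 (adjusted p = 0.0118). Relative to the median of all genes tested, the log2 fold change of Plin2 was 0.30 with either scaling of the counts, and in limma it was 0.02 on log2(FPKM + 1), 0.18 on log2(FPKM + 0.1) and -0.34 on log2(FPKM + 1) without a filter.

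**Figure D2:**
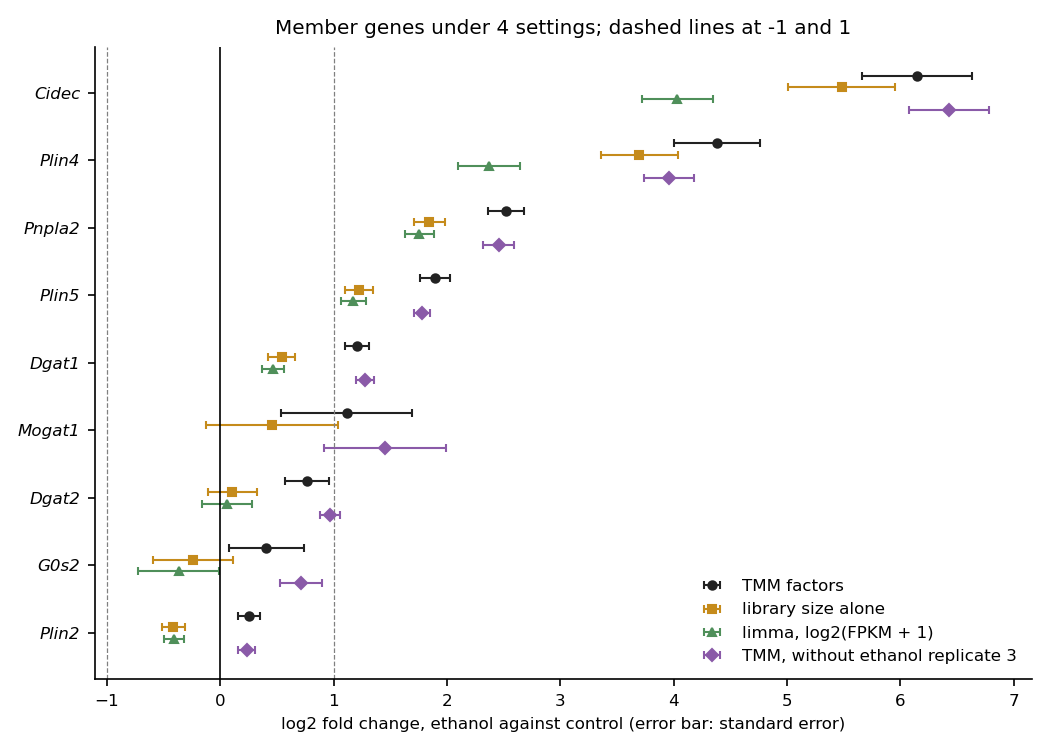
Log2 fold change (ethanol-exposed over control mice) of the 9 members tested, as points with bars of 1 SE, in edgeR with TMM factors (circles), with library size alone (squares) and with TMM factors but without ethanol replicate 3 (diamonds), and in limma on log2(FPKM + 1) (triangles, which lack Mogat1). Cidec, at 6.15 with TMM factors, is farthest to the right, whereas Plin2 and G0s2 change sign between TMM factors and library size alone, from 0.26 to -0.41 and from 0.41 to -0.24.

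The makeup of the perilipin pool was compared on the FPKM scale, where length is accounted for and the scaling of a library cancels in shares and ratios. The summed level of Plin2, Plin3, Plin4 and Plin5 was 145 ± 11.6 FPKM in ethanol-exposed mice and 143 ± 4.34 FPKM in control mice (SD, n = 3). Their near equality depends on the scaling, which does not cancel in a sum. With TMM factors, the log2 fold changes were 0.26 for Plin2, 0.28 for Plin3, 4.38 for Plin4 and 1.90 for Plin5. Plin2 made up 58.2 ± 3.67% of the summed FPKM in ethanol-exposed mice and 78.7 ± 0.697% in control mice. Plin5 made up 31.1 ± 1.29% and 13.6 ± 0.270%, respectively, and Plin4 5.25 ± 2.08% and 0.417 ± 0.018%. A larger part of the perilipin transcripts was thus Plin5 and Plin4 in every ethanol-exposed mouse.

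The ratio of Plin5 to Plin2 in FPKM was 0.507, 0.502 and 0.604 in the ethanol-exposed mice and 0.178, 0.171 and 0.169 in the control mice, a difference in log2 ratio of 1.63 without overlap. The ratio of Plin4 to Plin2 differed by 4.01 on the log2 scale, also without overlap. Each of 7 such ratios gave p = 0.1 in a two-sided exact permutation test (adjusted p = 0.1), which is the smallest value that 3 mice against 3 allow, so that no ratio can pass 0.05. Plin3, the perilipin found on many droplets and in the cytosol, overlapped between the groups, with a log2 fold change of 0.28 (adjusted p = 0.215 in edgeR's quasi-likelihood test) that was -0.40 with library size alone. Plin1, the perilipin of adipocytes, was not tested, with 3, 0 and 0 counts against 0, 18 and 16 counts in control mice.

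Of the droplet fusion proteins, Cidec rose more than any other member tested. Cidec (ENSMUSG00000030278, chromosome 6, 113401595 to 113412721, minus strand) was counted 5774, 3692 and 2178 times in ethanol-exposed mice and 65, 110 and 58 times in control mice. These corresponded to 100.4, 60.4 and 39.9 CPM and to 0.693, 1.44 and 0.704 CPM. The lowest ethanol-exposed mouse, replicate 3, was still far above the highest control mouse. The mean was 66.9 ± 30.7 CPM against 0.947 ± 0.430 CPM (SD, n = 3), 70.6-fold higher, with a log2 fold change of 6.15 (SE 0.48, adjusted p = 0.000211 in edgeR's quasi-likelihood test). On the FPKM scale, 69.2% of the genes tested had a higher mean level than Cidec in control mice and 6.68% in ethanol-exposed mice.

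Cidea (ENSMUSG00000024526) was counted 15, 18 and 0 times in ethanol-exposed mice and 0 times in each control mouse, and was below the filter on low counts. It was thus detected in ethanol replicates 1 and 2 only. Set against a floor of 3 counts over the control group, the ethanol-exposed group, with 33 counts in all, was 16.0-fold higher in CPM. That limit covers counting error in the control group only and takes the 33 counts as exact. A count of 0 allowed up to 0.055 CPM in ethanol replicate 3 and up to 0.0119 CPM over the control group.

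Cideb, the CIDE protein of hepatocytes that also acts in secretion of very low density lipoprotein, had 109.9 ± 24.1 CPM in ethanol-exposed mice against 154 ± 9.83 CPM in control mice (SD, n = 3). Its log2 fold change of -0.49 missed the threshold (adjusted p = 0.0523 in edgeR's quasi-likelihood test). It passed as lower without ethanol replicate 1 (-0.64, adjusted p = 0.0353) or 3 (-0.32, adjusted p = 0.0243), and was called downregulated with library size alone (-1.16, adjusted p = 0.0017), in edgeR. On the FPKM scale, Cideb made up 99.5 ± 0.258% of the summed CIDE transcripts in control mice and 68.1 ± 5.52% in ethanol-exposed mice, and Cidec 0.495 ± 0.258% and 31.7 ± 5.47%. The ratio of Cidec to Cideb in FPKM was 0.613, 0.422 and 0.382 in the ethanol-exposed mice and 0.00334, 0.00799 and 0.00361 in the control mice. This was a difference of 6.66 on the log2 scale, without overlap, and p = 0.1 in the exact permutation test.

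Since Cidec, Cidea and Plin4 are best known from adipocytes, adipocyte markers were examined in the same libraries. Of 11 adipocyte markers in the table, 5 were tested, of which Fabp4 and Slc2a4 were called upregulated and Adrb3 downregulated. The median log2 fold change of those tested was 0.43, and 3 of the 4 whose groups did not overlap were higher in ethanol-exposed mice. Over all genes tested, 24.2% were called in either direction, 59.0% did not overlap and 28.0% were higher without overlap. Adipoq, Lep and Retn, which encode hormones of adipocytes, were at 0 counts in all 3 ethanol-exposed mice and scarce in the control mice, with 0, 12 and 7 counts for Adipoq, 0, 0 and 4 for Lep and 4, 3 and 4 for Retn. The summed level of the 11 markers was 5.53 to 8.21 FPKM in ethanol-exposed mice and 7.47 to 10.2 FPKM in control mice. This sum is scaled by library size only, whereas the median log2 fold change of 0.43 is with TMM factors, so their directions cannot be compared. The part of adipocyte RNA in the changes of Cidec, Cidea and Plin4 was not tested.

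Of the lipolysis genes, the lipase Pnpla2 rose and its inhibitor G0s2 did not pass the test. Pnpla2 (ENSMUSG00000025509, chromosome 7, 141035111 to 141040656, plus strand) had 215, 153 and 214 CPM in the ethanol-exposed mice and 35.3, 33.8 and 32.3 CPM in the control mice. Every ethanol-exposed mouse was above every control mouse by a wide margin. The mean was 194 ± 35.4 CPM against 33.8 ± 1.54 CPM (SD, n = 3), 5.74-fold higher, with a log2 fold change of 2.52 (SE 0.16, adjusted p = 9.88e-05 in edgeR's quasi-likelihood test), the smallest adjusted p among the members.

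G0s2 (ENSMUSG00000009633, chromosome 1, 192954469 to 192955525, minus strand) had 57.9, 89.8 and 32.5 CPM in the ethanol-exposed mice and 39.2, 47.5 and 49.2 CPM in the control mice. The groups overlapped, because ethanol replicate 3 was below all control mice and the other ethanol-exposed mice were above them. The mean was 60.04 ± 28.7 CPM against 45.3 ± 5.39 CPM (SD, n = 3), with a log2 fold change of 0.41 (SE 0.33, adjusted p = 0.350 in edgeR's quasi-likelihood test). Without ethanol replicate 3, the log2 fold change was 0.71 (adjusted p = 0.0150), and without ethanol replicate 2 it was -0.0041 (adjusted p = 0.992). With library size alone, it was -0.24, and relative to the median of all genes tested it was 0.45 with TMM factors and 0.47 with library size alone. G0s2 lies wholly within Lamb3, a gene of the opposite strand with 158 to 335 counts per library, against 1773 to 5489 for G0s2.

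The balance of lipase, inhibitor and coactivator was compared within each library. The ratio of G0s2 to Pnpla2 in FPKM was 0.933, 2.03 and 0.527 in the ethanol-exposed mice and 3.84, 4.87 and 5.30 in the control mice, 4.63-fold lower without overlap (p = 0.1 in the exact permutation test). Abhd5, the coactivator of Pnpla2, had 15.3, 12.6 and 27.0 CPM in the ethanol-exposed mice and 29.1, 30.6 and 27.3 CPM in the control mice. A log2 fold change of -0.66 did not pass the threshold (adjusted p = 0.0835 in edgeR's quasi-likelihood test), and ethanol replicate 3 was close to the lowest control mouse. Without that library, Abhd5 passed as lower, at -1.04 (adjusted p = 0.000282 in edgeR), as it did with library size alone, at -1.34 (adjusted p = 0.00342). The ratio of Abhd5 to Pnpla2 in FPKM was 0.036, 0.0417 and 0.064 in the ethanol-exposed mice and 0.417, 0.459 and 0.429 in the control mice, 9.49-fold lower without overlap (p = 0.1 in the exact permutation test). Both ratios were thus lower in each ethanol-exposed mouse than in any control mouse, and G0s2 stayed above Pnpla2 in ethanol replicate 2 as in the control mice. Only 3.21% of all genes tested rose more than Pnpla2, so a ratio to it falls for most genes. These ratios therefore mainly restate the rise of Pnpla2 and do not show a change of either regulator.

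**Figure D3:**
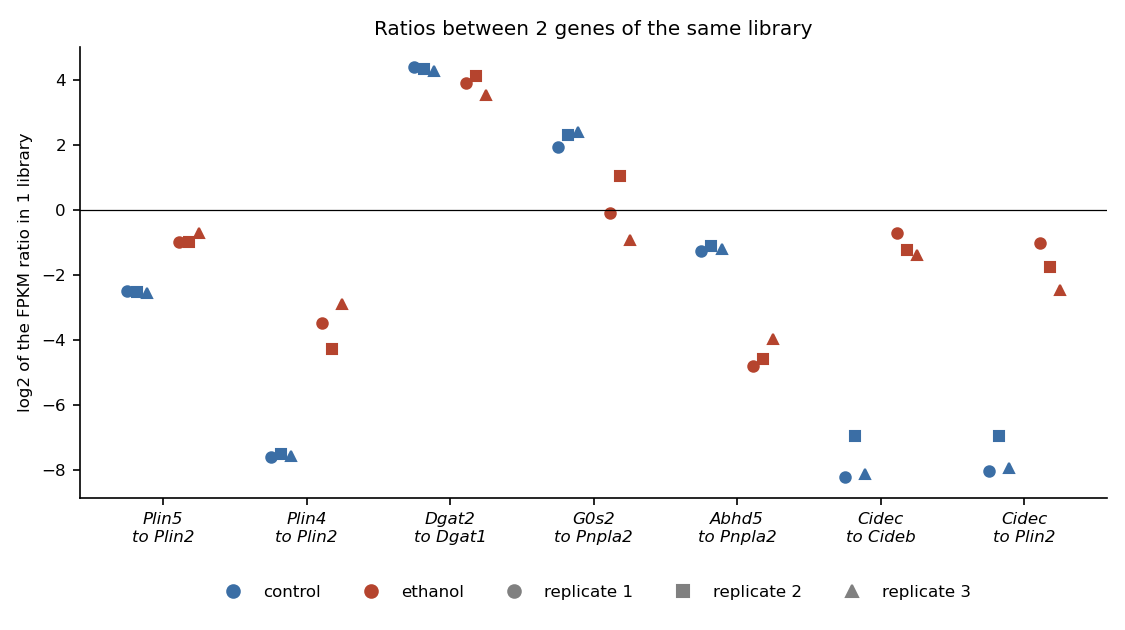
Log2 ratio of FPKM between pairs of genes of the same library, with a point for each of the 3 control and 3 ethanol-exposed mice. All 7 ratios are separated between the groups, from a difference of -3.25 for Abhd5 to Pnpla2 up to 6.66 for Cidec to Cideb. Every ratio includes a member called upregulated in the same libraries, so the separation is not further support for those calls. The share of all gene pairs that separate was not computed, and 59.0% of all single genes tested did not overlap in CPM.

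Hilpda, another inhibitor of Pnpla2 that is induced by hypoxia and fatty acids, had 39.0, 67.4 and 9.13 CPM in the ethanol-exposed mice and 1.00, 1.43 and 1.25 CPM in the control mice. It rose 31.4-fold, with a log2 fold change of 4.97 (SE 0.71, adjusted p = 0.00186 in edgeR's quasi-likelihood test), and ethanol replicate 3 was the lowest of its group. Without ethanol replicate 2, the highest, Hilpda was 19.7-fold higher (adjusted p = 0.00396 in edgeR). Further down the lipolytic chain, Mgll, the monoacylglycerol lipase, rose by a log2 fold change of 0.70 (adjusted p = 0.00693), whereas Lipe, the hormone-sensitive lipase, had 0.43 (adjusted p = 0.0634) and Pnpla3 0.85 (adjusted p = 0.237). Without ethanol replicate 3, both passed as higher in edgeR, Lipe at 0.52 (adjusted p = 0.0180) and Pnpla3 at 1.22 (adjusted p = 0.0398), whereas Pnpla3 was at 0.24 without ethanol replicate 2 and Lipe at -0.24 with library size alone.

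Of the acyltransferases that complete triglyceride, Dgat1 was called upregulated, Dgat2 passed the adjusted p but not the fold threshold, and Mogat1 did not pass the adjusted p. Dgat1 (ENSMUSG00000022555, chromosome 15, 76386215 to 76396151, minus strand), which re-esterifies fatty acids in the endoplasmic reticulum, had 35.6, 35.0 and 31.0 CPM in the ethanol-exposed mice and 14.8, 14.4 and 14.8 CPM in the control mice. Both groups were narrow and did not overlap. The mean was 33.9 ± 2.52 CPM against 14.7 ± 0.237 CPM (SD, n = 3), 2.31-fold higher, with a log2 fold change of 1.21 (SE 0.10, adjusted p = 0.000272 in edgeR's quasi-likelihood test). With library size alone, the log2 fold change of 0.54 passed the adjusted p (0.00672) but not the fold threshold.

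Dgat2 (ENSMUSG00000030747, chromosome 7, 98802865 to 98831926, minus strand), which acts with newly made fatty acids, had 536, 610.3 and 358 CPM in the ethanol-exposed mice and 309, 289.9 and 286 CPM in the control mice. The groups did not overlap, and ethanol replicate 3 was nearest to the control mice. The mean was 501 ± 129.9 CPM against 295 ± 12.3 CPM (SD, n = 3), 1.70-fold higher, with a log2 fold change of 0.77 (SE 0.20, adjusted p = 0.0176 in edgeR's quasi-likelihood test). The adjusted p was no longer passed with library size alone, where the log2 fold change was 0.11 (adjusted p = 0.697 in edgeR). Relative to the median of all genes tested, it was 0.81 with TMM factors and 0.82 with library size alone. Dgat2 also missed the adjusted p when any single library but ethanol replicate 3 was left out (0.0506 to 0.0715 in edgeR), with log2 fold changes of 0.60 to 0.80. Without ethanol replicate 3, the log2 fold change was 0.97 (adjusted p = 0.00011).

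Mogat1 (ENSMUSG00000012187, chromosome 1, 78487628 to 78514810, plus strand), a monoacylglycerol acyltransferase that is scarce in lean liver, was counted 52, 43 and 17 times in ethanol-exposed mice and 20, 16 and 38 times in control mice. The groups overlapped. The mean was 0.639 ± 0.301 CPM against 0.295 ± 0.144 CPM (SD, n = 3), with a log2 fold change of 1.11 (SE 0.58, adjusted p = 0.158 in edgeR's quasi-likelihood test). Its paralog Mogat2 was counted 4 to 16 times in ethanol-exposed mice and 13 to 20 times in control mice, with a log2 fold change of -0.63 (adjusted p = 0.504) that was -1.54 without ethanol replicate 2.

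On the FPKM scale, Dgat2 stood above Dgat1 in all mice, at 121 ± 35.9 FPKM against 8.20 ± 0.855 FPKM in ethanol-exposed mice and at 113 ± 5.05 FPKM against 5.65 ± 0.097 FPKM in control mice (SD, n = 3). The ratio of Dgat2 to Dgat1 was 15.0, 17.3 and 11.5 in the ethanol-exposed mice and 20.7, 20.02 and 19.2 in the control mice, a difference of -0.47 on the log2 scale without overlap (p = 0.1 in the exact permutation test).

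In control mice, the order of mean levels in FPKM was Dgat2 (113), Plin2 (112), G0s2 (61.3), Plin5 (19.4), Pnpla2 (13.2), Dgat1 (5.65), Cidec (0.597), Plin4 (0.595) and Mogat1 (0.216), of which Dgat2 and Plin2, as well as Cidec and Plin4, did not differ beyond their spread. In ethanol-exposed mice, it was Dgat2 (121), Plin2 (84.1), G0s2 (51.8), Pnpla2 (47.3), Plin5 (45.3), Cidec (26.7), Dgat1 (8.20), Plin4 (7.71) and Mogat1 (0.291). Here neighbours in the order overlapped between mice for Dgat2 and Plin2, Plin2 and G0s2, G0s2 and Pnpla2, Pnpla2 and Plin5, and Dgat1 and Plin4. Cidec thus moved from below Dgat1 to above it.

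The ethanol-exposed mice varied more among themselves than the control mice for 8 of the 9 members tested, with a median coefficient of variation in CPM of 25.9% against 4.57%. Over all genes tested, the variation was larger in ethanol-exposed mice for 73.8%, with medians of 23.7% and 11.6%. The members did not move together within the ethanol-exposed group. Ethanol replicate 3 had the highest CPM of its group for the perilipins Plin2, Plin4 and Plin5 and the lowest for Cidec, G0s2, Dgat1, Dgat2 and Mogat1.

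The genes around the members were counted in 5 lists, chosen by function, and their counts stand beside the 10.4% of all genes tested called upregulated and the 13.8% called downregulated, and the 21.5% that passed the adjusted p alone in each direction. In all, 12 of 85 genes tested were called upregulated and 3 downregulated, or 17.6% called in either direction against 24.2% of all genes tested. This split depends on the scaling. With library size alone, 19 list genes were called. The background also moved there, to 846 of all 16717 genes called upregulated and 5385 downregulated, instead of 1738 and 2301. Hsd17b13, Abhd6, Slc27a2, Lpcat3 and Fabp4 were then no longer called upregulated. The median log2 fold change ranged from 0.11 in triglyceride synthesis to 0.59 in fatty acid uptake and activation, against -0.04 for all genes tested.

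In triglyceride synthesis, 4 of 17 genes were called upregulated and 2 downregulated. Lpin1, the phosphatidate phosphatase that provides diacylglycerol, had 1339, 908 and 606 CPM in the ethanol-exposed mice and 54.7, 39.7 and 39.7 CPM in the control mice. It rose 21.3-fold, with a log2 fold change of 4.41 (SE 0.33, adjusted p = 0.000187 in edgeR's quasi-likelihood test). The glycerol phosphate acyltransferases Gpat3 and Gpat4 rose by log2 fold changes of 2.81 (adjusted p = 0.00102) and 2.22 (adjusted p = 0.000741), whereas their mitochondrial counterpart Gpam overlapped between the groups at -0.60 (adjusted p = 0.227). With library size alone, Gpam was called downregulated, at -1.25 (adjusted p = 0.0285 in edgeR). Agpat1, which acylates lysophosphatidate, fell by 1.16 on the log2 scale (adjusted p = 0.0197). It did not pass without ethanol replicate 2, control replicate 1 or control replicate 2 (adjusted p of 0.0563 to 0.0735 in edgeR). Log2 fold changes there stayed at -1.18 to -1.04. Without ethanol replicate 1, Agpat1 passed the adjusted p (0.0486 in edgeR) but not the fold threshold, at -0.95.

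Among other lipid droplet proteins, 1 of 18 genes was called upregulated and 0 downregulated, and at the adjusted p alone 5 were higher and 1 was lower. The gene called was Hsd17b13, a droplet enzyme of hepatocytes, with a log2 fold change of 1.53 (adjusted p = 0.000487). With library size alone, Hsd17b13 was at 0.87 (adjusted p = 0.00409 in edgeR), below the fold threshold. In triglyceride hydrolysis, 3 of 22 genes were called upregulated and 0 downregulated, and at the adjusted p alone 7 were higher and 1 was lower, Lipa, the lysosomal lipase, at -0.95. Beside Hilpda, the genes called were the carboxylesterase Ces1d, at 1.88 (adjusted p = 0.000606), and the monoacylglycerol lipase Abhd6, at 1.63 (adjusted p = 0.00527). With library size alone, Abhd6 was at 0.97 (adjusted p = 0.0345 in edgeR), just below the fold threshold.

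In triglyceride secretion, 2 of 13 genes were called upregulated and 0 downregulated, and 8 passed the adjusted p alone, all higher, where 21.5% of all genes tested passed as higher. The apolipoprotein Apoa4 rose 3.99-fold (adjusted p = 0.00702 in edgeR's quasi-likelihood test) and the lysophospholipid acyltransferase Lpcat3 2.16-fold (adjusted p = 0.0201), whereas Mttp, which loads lipid onto apolipoprotein B, differed by 0.32 on the log2 scale (adjusted p = 0.137). Mttp passed as higher without ethanol replicate 3 (0.47, adjusted p = 0.00437 in edgeR) and was at -0.34 with library size alone. In fatty acid uptake and activation, 2 of 15 genes were called upregulated and 1 downregulated. Slc27a2, a fatty acid transporter and acyl-CoA synthetase of hepatocytes, rose by a log2 fold change of 1.38 (adjusted p = 0.000734), as did the fatty acid binding protein Fabp4, by 1.69 (adjusted p = 0.0171). Its relative Fabp5 fell by 1.43 on the log2 scale (adjusted p = 0.00527), and Cd36, a fatty acid receptor, rose by 0.71 (adjusted p = 0.00473). Without ethanol replicate 3, Fabp4 was 2.04-fold instead of 3.23-fold higher, and it did not pass without control replicate 1 or 2 (adjusted p of 0.0726 and 0.0658 in edgeR). Lpcat3 did not pass without any single library but ethanol replicate 3 (adjusted p of 0.0539 to 0.0796). With library size alone, neither passed, at log2 fold changes of 0.45 for Lpcat3 and 1.01 for Fabp4. Slc27a2 passed the adjusted p there (0.00835 in edgeR) but not the fold threshold, at 0.71. As the small changes of Mgll and Cd36 also depend on the scaling, Mgll was at 16.1 ± 3.19 FPKM against 15.7 ± 0.650 FPKM and Cd36 at 5.90 ± 1.06 FPKM against 5.71 ± 0.389 FPKM, with library size as the only scaling.

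**Figure D4:**
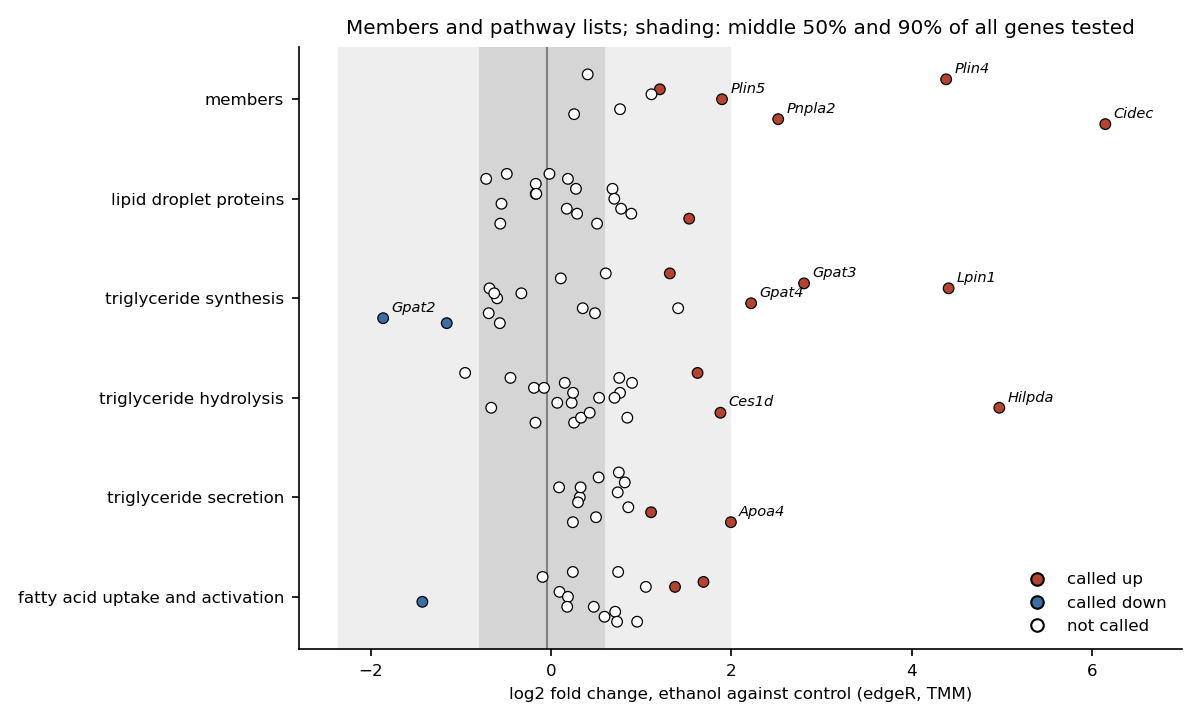
Log2 fold change (ethanol-exposed over control mice, counts scaled by TMM factors) of the members and of the genes in 5 lists of triglyceride handling, with a point for each gene tested, red or blue where called upregulated or downregulated. The grey line is the median of all genes tested (-0.04) and the shading their middle 50% and 90%, beyond which lie Cidec, Plin4 and Pnpla2 of the members.

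Markers of liver cell types were examined in the same libraries, and their part in the changes was not tested. Over all genes tested, 10.4% were called upregulated and 13.8% downregulated, which stand beside each count here. Of 14 hepatocyte markers, 3 were called upregulated and 0 downregulated, with a median log2 fold change of 0.76. The summed level of 11 Kupffer cell markers was 60.5 to 74.7 FPKM in ethanol-exposed mice and 98.0 to 108 FPKM in control mice, with 1 gene called upregulated and 0 downregulated. For 11 stellate cell markers it was 18.4 to 22.0 FPKM and 27.0 to 32.3 FPKM, with 0 called upregulated and 2 downregulated. For 9 endothelial cell markers it was 18.8 to 34.4 FPKM and 34.4 to 39.7 FPKM, with 2 called upregulated and 3 downregulated. For 7 cholangiocyte markers it was 16.6 to 25.2 FPKM and 20.3 to 50.5 FPKM, with 1 of 6 tested called upregulated and 0 downregulated. These sums are scaled by library size only. With TMM factors, the median log2 fold change was -0.15 for Kupffer cell, -0.41 for stellate cell, -0.24 for endothelial cell and -0.40 for cholangiocyte markers, against -0.04 for all genes tested.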

How the data were processed

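Livers of 3 ethanol-exposed and 3 control mice, which the labels give as separate animals, were analysed. The authors deposited whole-number counts of reads per gene and, beside them, FPKM values scaled to transcript length and library size. The aligner, the counter and the use of strand are not given in the sources used here, so genes that overlap are uncertain. The submitters' processing notes name GRCm38 and mm10, but only 539 of 27049 genes shared with GENCODE M21 (GRCm38) had the same start and end. Gene coordinates are therefore as deposited, with their build unsettled. A further 1 column of counts, which matches no sample, was not used.

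Genes were filtered by filterByExpr (minimum count 10), scaled by TMM factors and tested by the quasi-likelihood test of edgeR 4.0.16 in R 4.3.3, on the whole table, with thresholds of 0.05 for the adjusted p and 1 for the log2 fold change. Of 200 genes changed in simulated data, 115 were recovered with 9 false calls, including 98 of 100 changed 4-fold. Totals of 60514417 to 74210869 counts keep counting error small, and 3 mice per group limit the precision. Alternatives used DESeq2 1.42.0, limma 3.58.1 on log2(FPKM + 1) and log2(FPKM + 0.1), other scalings and filters, a replicate block and leaving out each library. Ratios of FPKM were tested by exact permutation (scipy 1.17.1).

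Members, lists, tests and motifs were chosen with earlier results of these data known. Named genes were the members, 13 partners or paralogs, and in each list up to 3 genes called in each direction with the largest change and a mean of at least 1 FPKM. Outside this rule, after their values were seen, Lipa and the adipocyte markers Slc2a4, Adrb3, Adipoq, Lep and Retn were named, as were Hdgfl2 and Lamb3, which overlap members.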

Additional observations from a re-analysis of the deposited data

How the results depend on the processing

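Plin4, Plin5, Cidec and Pnpla2 were called upregulated in edgeR, DESeq2 and limma and with any single library left out, and Dgat1 in all of these but limma and edgeR with library size alone, which put it below the fold threshold. Between 4 and 6 members were called upregulated and 0 downregulated, and 5 to 9 passed the adjusted p. The sixth call, Cidea, came with DESeq2 and without ethanol replicate 3. That mouse was the only ethanol-exposed one at 0 counts, so leaving it out favoured the call, which adds no support. Cidea was not called in edgeR without a filter (adjusted p = 0.0891) or without control replicate 1, 2 or 3 (adjusted p of 0.107 to 0.114). The sign turned for Plin2 and G0s2, where library size alone lowers all genes alike. For Plin2, log2 fold changes were -0.41 (library size alone), -0.41 (limma on log2(FPKM + 1), with or without a filter) and -0.42 (limma on log2(FPKM + 0.1)), each past the adjusted p. It passed as higher without ethanol replicate 3 (0.23, adjusted p = 0.0346 in edgeR) and when the trend of a library over transcript length was taken out, an alternative chosen after seeing the data (0.40, adjusted p = 0.0138 in edgeR). G0s2 had -0.24, -0.37 and -0.38 in the same settings and ranged from -0.0041 without ethanol replicate 2 to 0.71 without ethanol replicate 3 (adjusted p = 0.0150 in edgeR). Dgat2 ranged from 0.60 to 0.97 with single libraries left out, and fell short of the adjusted p with library size alone (0.11) and in limma (0.06). Over these settings, the genes called in the 5 lists numbered 12 to 22, against 15. With library size alone, 19 were called, but not the same genes. Hsd17b13, Abhd6, Slc27a2, Lpcat3 and Fabp4 were then no longer called upregulated, whereas Lpin1, Gpat3, Gpat4, Hilpda, Ces1d and Apoa4 still were. Cideb and Gpam were called downregulated there.

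No pairing of ethanol-exposed and control mice by replicate number was seen, with correlations of deviations of -0.03, -0.02 and -0.02 within pairs and of -0.01 to 0.03 between other numbers. With so few mice, this cannot exclude a pairing. With a replicate block, 5 members were called upregulated as before, the log2 fold change of Dgat2 was 0.73 (adjusted p = 0.0303 in edgeR), and all genes called upregulated and downregulated numbered 1518 and 2000 instead of 1738 and 2301. With library size alone they numbered 846 and 5385, and in limma 408 and 1714 on log2(FPKM + 1) and 572 and 3567 on log2(FPKM + 0.1). The partner and list genes were refitted without single libraries and with library size alone after seeing the data. The low level of Mogat1 and Cidea, at most 52 counts per library, limits what can be said of them at this depth.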
